A study of Mus musculus with 4 samples.

Results

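The FGF-ERK feedback genes are 10 genes of the fibroblast growth factor (FGF) signal of mouse embryonic stem cells (ESCs). Fgf4 starts the signal, and the others are switched on by it and either hold it back or carry it to target genes. The 10 genes were taken by symbol from the table of counts: Fgf4, Dusp4, Dusp6, Spry1, Spry2, Spry4, Spred1, Spred2, Etv4 and Etv5. All 10 were found among the 50559 genes listed, and all 10 were among the 18144 genes with enough counts to be tested. The labels name the E14 line, and the study describes its ESCs as carrying a tdTomato reporter under the MERVL promoter and a Dux transgene that doxycycline switches on; the labels name no doxycycline for these libraries. The cells were grown on gelatin with serum replacement and leukemia inhibitory factor (LIF). One group received a non-targeting siRNA (siNT) and the other an siRNA against Cnot1 (siCnot1), the scaffold subunit of the CCR4-NOT complex that shortens the poly(A) tails of mRNAs. Both siRNAs were given at 150 nM and cells were collected after 48 h, with 2 replicates in each group. These libraries form 1 knockdown group, so an effect of Cnot1 loss and an unintended effect of its siRNA cannot be told apart here.

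ESCs secrete FGF4, which binds FGF receptors on the same and neighbouring cells and activates the kinases RAF, MEK and ERK. Active ERK induces a set of genes whose products damp the pathway again. DUSP4 and DUSP6 are phosphatases that remove the activating phosphates from ERK, Sprouty and Spred proteins act upstream at the level of RAS and RAF, and the ETS transcription factors ETV4 and ETV5 carry the signal to target genes. The mRNAs of such genes are widely used as a readout of ERK activity, and FGF-ERK signalling moves ESCs from the naive state toward lineage entry.

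After knockdown of Cnot1, 5 of the 10 genes were lower and 1 was higher. Spred1, Spry4, Dusp6, Spry2 and Etv4 fell to between 52.7% and 72.9% of the siNT level, and Fgf4 rose to 126%. Dusp4, Spry1, Spred2 and Etv5 were not called. A gene was called at an adjusted p under 0.05, where p came from the quasi-likelihood test of edgeR and was adjusted by the method of Benjamini and Hochberg over every gene tested. By that rule 15.0% of all tested genes were higher in siCnot1 and 14.7% were lower. The rule used by the study, an unadjusted p of at most 0.05 and a change of at least 1 in either direction on the log2 scale, took in 6.18% of tested genes as higher and 1.80% as lower, and 0 of the 10 members in either direction. The median log2 fold change of the members was -0.36 against 0.0084 for all tested genes, and their median absolute log2 fold change was 0.39 against 0.26. The groups did not overlap for 8 of the 10 members, which was the case for 63.9% of all tested genes. The members were not drawn at random, so these shares describe the genes and are not a test of the group.

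Libraries held between 32135824 and 32557440 counts on genes, so depth was alike in both groups. Levels are given as counts per 1000000 counts of the library, scaled by edgeR's TMM factors (normalized CPM), which correct for a few abundant genes taking up reads. These factors stood at 0.9637 and 0.9635 for the siNT libraries and at 1.043 and 1.032 for the siCnot1 libraries, and with library totals in place of them the median log2 fold change of all tested genes was 0.12. That scaling also moved the share of higher genes among all called genes from 50.5% to 71.9%, while the counts of members called stayed at 1 higher and 5 lower. Within the range of mean levels that the members spanned, 5.26 to 453 normalized CPM, 10635 genes were tested, of which 17.2% were higher and 20.5% lower. Cnot1 itself was at 913 and 986 normalized CPM in the siNT libraries and at 185 and 192 in the siCnot1 libraries, 19.8% of control. On the log2 scale Cnot1 fell by 2.33 ± 0.059 (standard error; adjusted p = 2.37e-18, edgeR). These are bulk libraries, in which fewer cells of a type and less RNA per cell cannot be told apart. Levels and changes are relative to the other genes of a library, and total mRNA per cell was not measured. The RNA was selected by its poly(A) tail, and an effect of tail length on that selection was not tested.

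CCR4-NOT is brought to mRNAs by proteins that read short stretches of the 3′ UTR, among them the Tristetraprolin family, which binds A- and U-rich elements, and the Pumilio proteins. The 3′ UTRs of the members in 1 GENCODE M21 transcript per gene (build GRCm38) were therefore searched on the sense strand for TATTTAT, the core of an A- and U-rich element, and TGTANATA, the Pumilio motif. Matches of these motifs can share bases only at their ends. The first was present in 6 and the second in 7 of the 10 members. In Spry1 and Spry2 the first A- and U-rich match starts 178 and 162 bases before the end of the 3′ UTR. Their windows, shown with the match in capitals, begin with the same 16 of 23 bases at the first match, and the second match follows 32 bases on in Spry1 and 39 bases on in Spry2.
Spry1 first match, chr3:37644412-37644434, plus strand: gtaaagaaTATTTATtatgcgaa
Spry2 first match, chr14:105892095-105892117, minus strand: gtaaagaaTATTTATttgaagtt
Spry1 second match, chr3:37644444-37644466, plus strand: ttttatgaTATTTATtgcaaaag
Spry2 second match, chr14:105892056-105892078, minus strand: aaaaagaaTATTTATtttaagag
Fgf4 match, chr7:144863072-144863094, plus strand: cgcccaatTATTTATaattttat
Spred1 match nearest the end, chr2:117180905-117180927, plus strand: ttttaaaaTATTTATtgaaactt

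The Pumilio motif was found in each of the 5 members that fell, in Fgf4, which rose, and in 1 of the 4 that were not called, Etv5. Dusp6 and Spry4 held 2 matches each, and Spred1 alone held 4, more than any other member. Dusp6 and Etv4 had no A- and U-rich match. Windows of 4 members that fell are shown, with the match in capitals.
Dusp6 first match, chr10:99266792-99266815, plus strand: ctgattatTGTAAATAtttgatct
Dusp6 second match, chr10:99267111-99267134, plus strand: cttaccttTGTAAATAtttggctt
Etv4 match, chr11:101770311-101770334, minus strand: ttgctcagTGTATATAtcaactga
Spred1 first match, chr2:117179520-117179543, plus strand: ctgaacaaTGTATATAtatataac
Spry2 match, chr14:105892357-105892380, minus strand: tatattttTGTATATAcgataata

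Longer 3′ UTRs more often hold a match, so each member was set beside tested genes with a 3′ UTR within 20% of its length. In Etv4, with a 3′ UTR of 624 bases and 1 Pumilio match, such a match was present in 14.6% of 1570 genes of like length. Spry2, with 856 bases, had a Pumilio match shared by 17.2% and an A- and U-rich match shared by 21.8% of 1740 such genes. For Dusp6 (1189 bases, 2 Pumilio matches) the share with at least 1 was 23.9%. Spred1 and Spry4 have 3′ UTRs of 4330 and 3559 bases, where 53.7% and 49.2% of genes of like length held a Pumilio match, and 60.0% and 56.8% an A- and U-rich match. Neither motif was found in Dusp4 or Spred2. Across the 13820 tested genes with a 3′ UTR, the 24.3% with a Pumilio match had a median log2 fold change of 0.022 against 0.018 for those without. The 27.9% with an A- and U-rich match had a median of 0.046 against 0.0089. These classes were not matched for length. The median 3′ UTR was 2040 bases with a Pumilio match against 757 without, and 1982 with an A- and U-rich match against 717 without. A link between the matches and the changes of the members was not tested. In the 324 genes with 3 or more Pumilio matches, the class that holds Spred1, the median was -0.0095. A match is a run of letters in the reference and not a measured binding site. Windows are placed on GRCm38, while the gene positions that follow are those of the deposited table, which are on GRCm39.

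Fgf4, the ligand of the pathway in ESCs, was the only member that rose. It lies on GRCm39 chromosome 7, from 144415123 to 144418982 on the plus strand. Its level was 159 and 150.4 normalized CPM in the siNT libraries and 196 and 194 in the siCnot1 libraries. Both knockdown libraries were above both controls, and they lay closer to each other than the controls did. The means were 155 ± 6.12 and 195 ± 0.958 (SD, n = 2 each), a log2 fold change of 0.33 ± 0.059 (standard error) with a 95% interval from 0.21 to 0.45. The adjusted p was 0.00013 by edgeR's quasi-likelihood test. Among all tested genes, 24.1% had a fold change at or above that of Fgf4. In ESCs the gene is driven by a downstream enhancer that OCT4 and SOX2 bind. Its promoter is shown because Fgf4 moved against the members that fell. RefSeq (GRCm38.p6) places the window of 250 bases before and 50 bases after the start at chr7:144861136-144861435 on the plus strand.
Fgf4 promoter: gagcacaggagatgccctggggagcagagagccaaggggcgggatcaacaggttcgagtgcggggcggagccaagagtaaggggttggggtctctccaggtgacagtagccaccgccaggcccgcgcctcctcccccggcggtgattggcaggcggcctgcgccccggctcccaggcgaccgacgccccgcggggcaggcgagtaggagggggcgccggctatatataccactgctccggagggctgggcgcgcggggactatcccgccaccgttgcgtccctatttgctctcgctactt

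**Figure D1:**
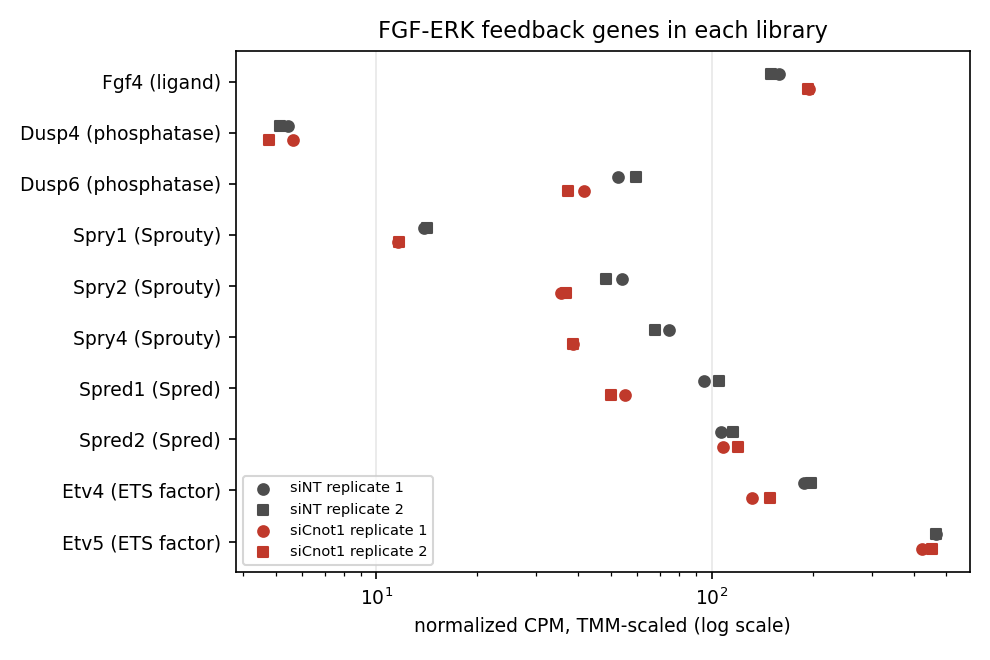
Normalized CPM (log scale) of the 10 FGF-ERK feedback genes in each of the 4 libraries, with siNT in grey above and siCnot1 in red below, circles for replicate 1 and squares for replicate 2. The red points lie to the right of the grey ones for Fgf4, mixed with them for Dusp4 and Spred2, and to the left for the remaining 7 genes.

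Of the phosphatases, Dusp6 fell and Dusp4 was not called. Dusp6, the cytoplasmic phosphatase that acts on ERK with high selectivity, is on GRCm39 chromosome 10, from 99098676 to 99103351 on the plus strand. It was measured at 52.7 and 59.3 normalized CPM in siNT and at 41.5 and 37.3 in siCnot1. The higher knockdown library was still below the lower control. Dusp6 changed by -0.51 ± 0.089 on the log2 scale (standard error, 95% interval -0.69 to -0.32), which left 70.4% of the control level with an adjusted p of 0.000138 by edgeR's quasi-likelihood test. Without siNT replicate 2, its highest library, the log2 fold change was -0.42 and the adjusted p from the same test 0.0672. Dusp4, a nuclear relative that is itself an ERK target (GRCm39 chromosome 8, 35274764 to 35287048, plus strand), was read from 160 to 189 counts per library. Its levels were 5.43 and 5.17 normalized CPM in siNT and 5.64 and 4.78 after knockdown, so that the controls lay between the knockdown libraries. The log2 fold change of Dusp4 was -0.024 with an interval from -0.43 to 0.38 (adjusted p = 0.946, edgeR), whose lower end is close to the change of Etv4. Dusp6 made up 90.6% and 92.0% of the summed normalized CPM of the pair in siNT and 88.0% and 88.6% in siCnot1.

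Sprouty proteins are inducible inhibitors of receptor tyrosine kinase signalling, and 3 of them were expressed. Spry4 (GRCm39 chromosome 18, 38719300 to 38734400, minus strand) stood at 74.5 and 67.9 normalized CPM in siNT and 38.6 and 38.5 in siCnot1. The knockdown libraries were nearly equal and far below both controls. Spry4 fell to 54.1% of the control level, a log2 fold change of -0.89 ± 0.082 (standard error, 95% interval -1.05 to -0.72, adjusted p = 2.73e-08 by edgeR's quasi-likelihood test). Spry2 (GRCm39 chromosome 14, 106129381 to 106134899, minus strand) had 53.8 and 48.3 normalized CPM in siNT and 35.5 and 36.7 in siCnot1, again with no overlap. For Spry2 the log2 fold change was -0.50 ± 0.089 (standard error, 95% interval -0.68 to -0.32, adjusted p = 0.000142, edgeR), 70.7% of control. Leaving out siNT replicate 1, the higher control, moved it to -0.42 with an adjusted p of 0.0532. Spry1 (GRCm39 chromosome 3, 37694096 to 37698748, plus strand) was at 13.8 and 14.2 normalized CPM in siNT and 11.6 and 11.7 in siCnot1. Its libraries also kept apart by group, yet the log2 fold change of -0.26 ± 0.13 (standard error) had an adjusted p of 0.125 by the same test, with an interval from -0.53 to -0.0014. The direction of Spry1 was thus that of its relatives, and the change was not called.

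Summed over the 3 Sprouty genes, the libraries had 142 and 130.4 normalized CPM in siNT and 85.8 and 86.9 in siCnot1. Spry4 accounted for 52.4% and 52.1% of that sum in the controls and 45.0% and 44.3% after knockdown, lower in both knockdown libraries than in either control. Spry3, the remaining Sprouty gene, had 6 and 2 counts in siNT and 4 and 4 in siCnot1 and was too low to test.

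Spred proteins are membrane-bound relatives of Sprouty that bind neurofibromin and so lower active RAS. Spred1 fell and Spred2 was not called. Spred1 (GRCm39 chromosome 2, 116951552 to 117012760, plus strand) was at 94.6 and 105 normalized CPM in siNT and 55.1 and 50.1 in siCnot1. Both control libraries were far above both knockdown libraries. Spred1 showed the lowest fold change of the 10 genes, -0.92 ± 0.075 on the log2 scale (standard error, 95% interval -1.08 to -0.77), with 52.7% of control remaining and an adjusted p of 4.84e-09 by edgeR's quasi-likelihood test. Of all tested genes, 2.95% had a fold change at or below it. Spred2 (GRCm39 chromosome 11, 19874442 to 19974026, plus strand) was at 107 and 115 normalized CPM in siNT and 108 and 119 in siCnot1. The groups interleaved, and the log2 fold change of 0.033 ± 0.067 (standard error) had an interval from -0.11 to 0.17 (adjusted p = 0.766, edgeR), which does not reach the fall of any member that was called lower. The share of Spred1 in the summed normalized CPM of both genes went from 47.0% and 47.6% in siNT to 33.8% and 29.5% in siCnot1.

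The ETS factors had the highest levels per kilobase among the ERK-induced members. Etv4 (GRCm39 chromosome 11, 101660573 to 101677963, minus strand) was found at 188 and 197 normalized CPM in siNT and 132 and 149 in siCnot1. Both knockdown libraries were under both controls, although they differed more from each other than the controls did. Etv4 fell to 72.9% of control, a log2 fold change of -0.46 ± 0.064 (standard error, 95% interval -0.59 to -0.32, adjusted p = 8.74e-06 by edgeR's quasi-likelihood test). In the fit without siNT replicate 2 it was at -0.42 with an adjusted p of 0.0549. Etv5 (GRCm39 chromosome 16, 22200063 to 22258320, minus strand), read from 14161 to 15212 counts per library, was at 465 and 468 normalized CPM in siNT and 423 and 455 in siCnot1. The groups did not overlap, but siCnot1 replicate 2 was close to the controls. The log2 fold change of Etv5 was -0.088 ± 0.055 (standard error, 95% interval -0.20 to 0.026) and was not called (adjusted p = 0.252, edgeR). With library totals in place of TMM its sign turned, at 0.019. Etv4 made up 28.8% and 29.7% of the summed normalized CPM of the pair in the controls and 23.8% and 24.7% after knockdown.

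The promoter of Spry2 is shown because it alone of the 8 RefSeq windows held by 7 members contained CCGGAA, a sequence bound by ETS factors such as ETV4 and ETV5. The match, in capitals, starts 33 bases after the transcription start, in chr14:105896770-105897069 on the minus strand of GRCm38.p6.
Spry2 promoter: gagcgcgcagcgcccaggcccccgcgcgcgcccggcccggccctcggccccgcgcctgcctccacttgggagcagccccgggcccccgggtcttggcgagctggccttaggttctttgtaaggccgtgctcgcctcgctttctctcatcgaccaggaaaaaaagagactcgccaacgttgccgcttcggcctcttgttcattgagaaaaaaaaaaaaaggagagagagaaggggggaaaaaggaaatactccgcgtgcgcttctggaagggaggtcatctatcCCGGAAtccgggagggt
Searched on both strands, CCGGAA was present in 14.9% of all 32851 RefSeq windows of this length. The shorter GGAA, with which it ends, was not searched for and occurs in other windows too, such as that of Dusp6. The AP-1 site TGANTCA and the cyclic AMP response element TGACGTCA, present in 7.81% and 1.79% of all windows, were found in none of the 8 windows.

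**Figure D2:**
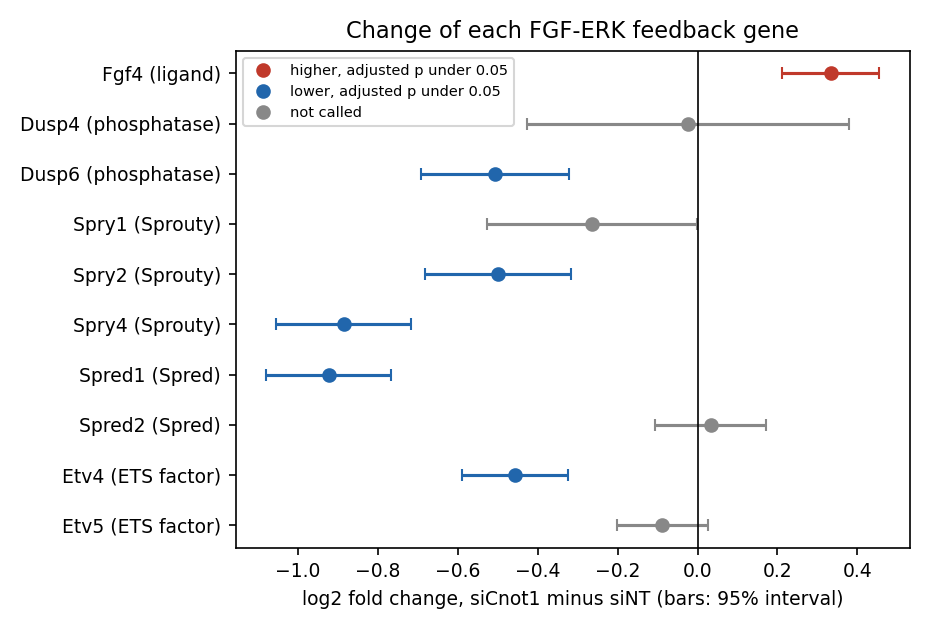
Log2 fold change of each FGF-ERK feedback gene, siCnot1 minus siNT, with bars for the 95% interval of the edgeR fit on 2 libraries per group. Fgf4 is the only gene to the right of 0 whose interval clears it, and the intervals of Spred1 (-1.08 to -0.77) and Spry4 (-1.05 to -0.72) lie to the left of those of Dusp6, Spry2 and Etv4, the lowest of which begins at -0.69; differences between genes were not tested.

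Compared per kilobase of the exon length listed with the counts, which is the scale on which genes can be ranked by level, Etv5 was highest among the members in siNT at 94.8 ± 0.390 normalized CPM per kilobase (SD, n = 2). It was followed by Fgf4 at 51.0 ± 2.02, Etv4 at 42.7 ± 1.42, Dusp6 at 17.4 ± 1.46, Spred1 at 14.1 ± 1.02, Spry2 at 11.5 ± 0.877, Spry4 at 6.87 ± 0.451, Spry1 at 5.61 ± 0.0974, Spred2 at 2.93 ± 0.164 and Dusp4 at 2.18 ± 0.0769. The listed length of Spred2, 37937 bases, is many times that of its GENCODE transcript of 2852 bases, and its place in this order turns on that. On the length of 1 GENCODE M21 transcript per gene, an alternative added after the data were seen, Spred2 was the fourth gene in siNT at 38.9 ± 2.17, above Spry2 at 24.5 ± 1.87, and Etv4 at 82.5 ± 2.75 was above Fgf4 at 51.1 ± 2.02. After knockdown Spry4 was below Spry1 on the listed length, at 3.72 against 4.67, and above it on the GENCODE length, at 8.11 against 4.201. Spred1 and Spry4 were neighbours on this scale, at 15.7 and 17.4 against 15.7 and 14.3 in the siNT libraries, a difference about as large as the spread within each gene. Fold changes do not depend on the length chosen. Exons of 4 members overlap a gene of low count, Dusp6, Spry1 and Etv4 on the opposite strand and Spry2 over 637 bases on the same strand, and none of these overlapping genes had more than 26 counts in a library. How reads over shared bases were assigned is not given, so these low counts do not limit how many reads the members could have lost there.

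**Figure D3:**
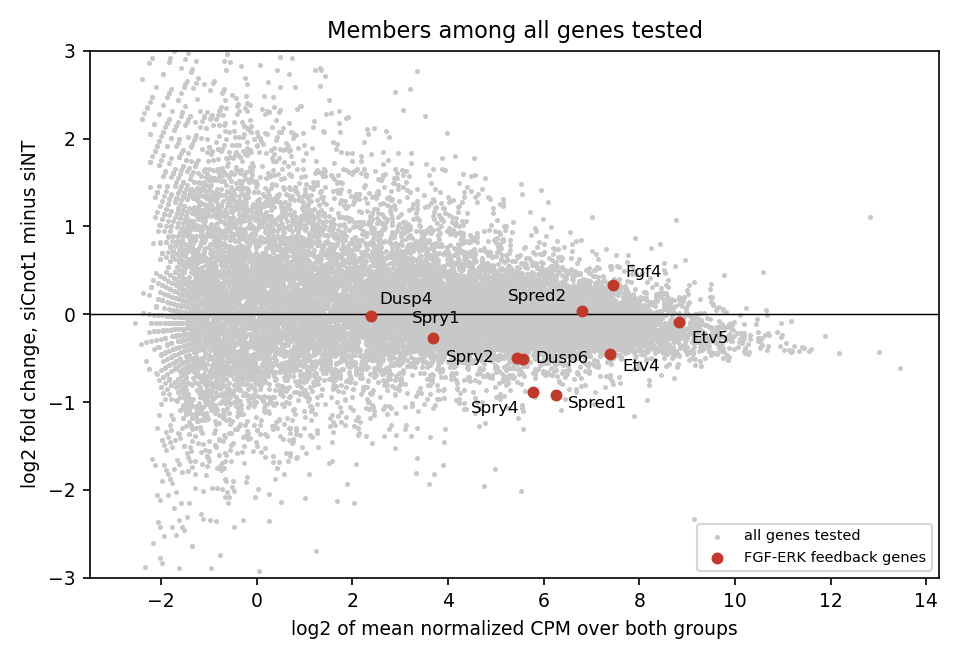
Log2 fold change (siCnot1 minus siNT) against the log2 of the mean normalized CPM over both groups, for the 18144 genes tested (grey) and the 10 FGF-ERK feedback genes (red, named); 66 genes lie outside the plotted range of fold changes. Spred1 and Spry4 lie along the lower edge of the cloud at their level, Fgf4 toward its upper edge, and Dusp4, Spred2 and Etv5 near 0.

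The paralogues of the members, 11 further DUSP, Sprouty, Spred and ETV genes, included 3 that fell and none that rose among the 10 tested, with a median log2 fold change of -0.27; in each fit without a control library 2 were lower. Etv1, the remaining member of the ETV4 and ETV5 subfamily, was at 34.3 and 35.2 normalized CPM in siNT and 21.4 and 21.9 in siCnot1. Etv1 changed by -0.68 on the log2 scale (adjusted p = 1.13e-05, edgeR), and the libraries of each group were close together. Dusp5, a nuclear phosphatase of ERK, went from 14.5 and 15.7 to 8.27 and 9.0 normalized CPM, a log2 fold change of -0.81 (adjusted p = 7.21e-05). Dusp9, a cytoplasmic ERK phosphatase, had 216 and 201 normalized CPM in siNT and 166 and 164 in siCnot1, a log2 fold change of -0.34 (adjusted p = 0.00012). In fits that left out 1 control library the adjusted p reached 0.0504 for Dusp5 (without siNT replicate 2) and 0.0509 for Dusp9 (without siNT replicate 1). The 7 paralogues that were not called were Dusp16 (log2 fold change -0.18), Dusp10 (-0.37), Dusp1 (-0.059), Dusp7 (0.10), Spred3 (-0.20), Dusp2 (0.71) and Dusp8 (-0.38); the last 2 rested on at most 33 counts per library.

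Upstream of ERK the genes moved both ways. Of 9 other FGF genes tested, among 21 listed, 1 was higher and 1 lower, and the median log2 fold change was 0.28. The list takes in intracellular relatives such as Fgf13, so it is not a list of receptor ligands alone. Its median ranged from 0.039 (without siCnot1 replicate 1) to 0.799 (without siCnot1 replicate 2) when 1 library was left out. With no filter on low counts it was 0.741. Fgf17 was at 25.0 and 22.6 normalized CPM in siNT and 14.4 and 18.2 in siCnot1 (log2 fold change -0.55, adjusted p = 0.0012 by edgeR's quasi-likelihood test), and Fgf13, an intracellular relative that is not secreted, rose from 2.41 and 2.30 to 5.88 and 5.98 (log2 fold change 1.33, adjusted p = 7.12e-05). Summed over all 21 listed, the other FGF genes were at 45.2 and 40.3 normalized CPM in siNT and 41.4 and 41.5 in siCnot1. Fgfr1, the main FGF receptor of naive ESCs, was at 119 and 123 normalized CPM in siNT and 139.6 and 136 in siCnot1, a log2 fold change of 0.19 (adjusted p = 0.0191). Fgfr2, the receptor associated with primitive endoderm, was low and overlapped between groups, at 4.21 and 5.46 against 3.79 and 4.99 (adjusted p = 0.69). Of 21 receptor and adaptor genes tested 8 were higher and 3 lower, and the median log2 fold change was 0.080. The counts were 3 higher and 0 lower in each fit without a control library, and 10 higher and 0 lower, with a median of 0.19, with library totals in place of TMM; the median was 0.046 without siCnot1 replicate 1. Fgfr4 (log2 fold change 1.59, adjusted p = 8.95e-07) and the heparan sulfate co-receptor Sdc4 (0.94, adjusted p = 2.25e-06) rose, while the adaptors Shc1 (-0.24, adjusted p = 0.00334) and Gab1 (-0.22, adjusted p = 0.00637) fell. The calls of Shc1 and Gab1 were lost with library totals in place of TMM (adjusted p = 0.0896 and 0.147) and in each fit without a control library (from 0.0603 to 0.157), that of Gab1 also without siCnot1 replicate 1 (0.105). Leaving out 1 library ended the call of Fgf17 in 3 of 4 fits (adjusted p from 0.0581 to 0.153), of Fgfr1 in all 4 (from 0.0723 to 0.153), and of Sdc4 in both fits without a control library (0.0532 and 0.0712).

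Within the RAS-ERK cascade, 24 genes were tested, of which 2 were higher and 7 lower, and the median log2 fold change was 0.0043. Without siNT replicate 2 the counts were 0 higher and 1 lower, without siNT replicate 1 or siCnot1 replicate 1 they were 0 higher and 5 lower, and with library totals in place of TMM they were 4 higher and 4 lower. Shoc2, the scaffold that lets RAF be dephosphorylated and activated, fell from 68.5 and 80.0 normalized CPM to 37.6 and 39.6, a log2 fold change of -0.94 (adjusted p = 2.39e-08, edgeR). Nras fell by 0.35 on the log2 scale (adjusted p = 0.00015), and Araf (0.31, adjusted p = 0.0018) and Rps6ka2 (0.28, adjusted p = 0.0392) rose. Shoc2 kept its call in every alternative fit tried. The call of Nras was lost without siNT replicate 2 (adjusted p = 0.0703), and those of Araf and Rps6ka2 were lost in 3 and 4 of the 4 fits that left out a library (adjusted p from 0.0613 to 0.0908 and from 0.107 to 0.184).

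Among other genes induced by ERK, 18 were tested, of which 8 were lower and 2 higher, with a median log2 fold change of -0.21. The number of lower genes was 3 without siNT replicate 1, 4 without siNT replicate 2 (median -0.14) and 5 with library totals in place of TMM (median -0.10). Junb, an AP-1 subunit, was at 29.8 and 25.6 normalized CPM in siNT and 16.5 and 16.3 in siCnot1 (log2 fold change -0.75, adjusted p = 1.39e-05 by edgeR's quasi-likelihood test). Ets2, an ETS factor phosphorylated by ERK, went from 65.6 and 68.2 to 41.5 and 42.6 (-0.67, adjusted p = 9.82e-07). For both genes the groups did not overlap, and the siNT libraries of Junb lay further apart than those of Ets2. The receptor tyrosine kinase gene Epha2 rose (0.36, adjusted p = 3.30e-05, edgeR), as did the cytokine gene Lif (0.61, adjusted p = 0.0177). The call of Lif was lost without siNT replicate 1, siNT replicate 2 or siCnot1 replicate 1 in turn (log2 fold change 0.744, 0.485 and 0.476). It was also lost with the test of DESeq2 (adjusted p = 0.0532) and in the edgeR fit with no filter on low counts (adjusted p = 0.0982). Il17rd, which encodes the FGF inhibitor Sef, was at 43.5 and 51.8 normalized CPM in siNT and 51.0 and 50.8 in siCnot1 and was not called (log2 fold change 0.094, adjusted p = 0.473).

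**Figure D4:**
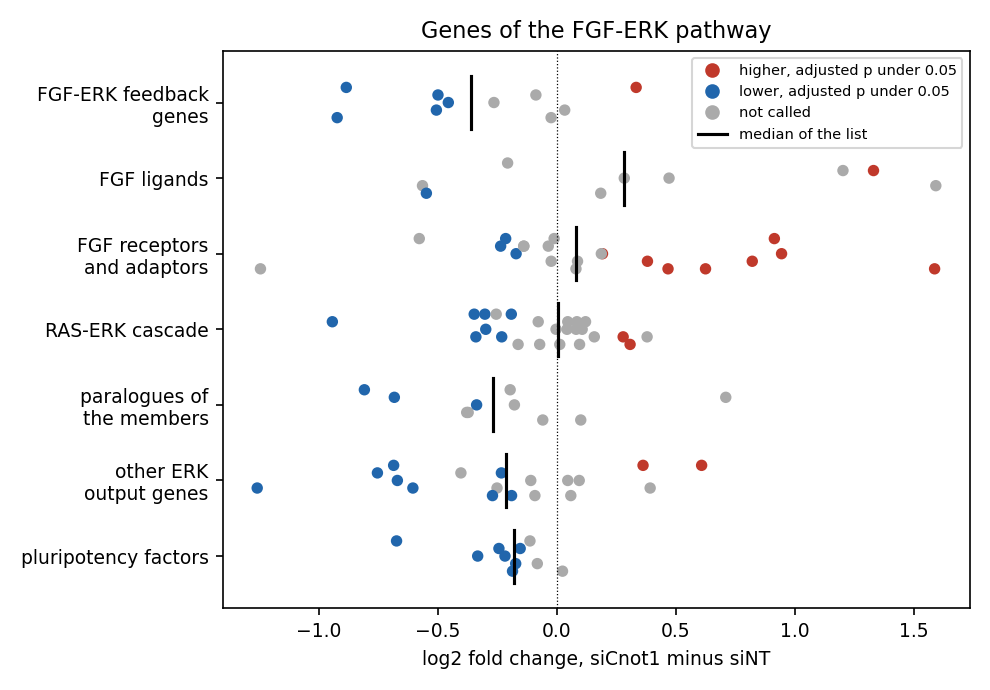
Log2 fold change (siCnot1 minus siNT) of each tested gene in the FGF-ERK feedback genes and in 6 lists of related genes, with a black line at the median of each list; red and blue mark genes called higher and lower. The medians run from -0.36 for the feedback genes to 0.28 for the other FGF genes, labelled FGF ligands. The latter median ranged from 0.039 to 0.799 when 1 library was left out.

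Fgf4 rose, while the genes of OCT4 and SOX2, which bind its enhancer, were called lower in the main fit. Of 10 pluripotency factors tested 7 were lower and none higher, with a median log2 fold change of -0.18. In 3 of the 4 fits that left out a library, all but that without siCnot1 replicate 2, 2 factors were lower, and with library totals in place of TMM 3 were lower and the median was -0.073. Pou5f1, which encodes OCT4, was at 1113 and 1028 normalized CPM in siNT and 878 and 931 in siCnot1 (log2 fold change -0.24, adjusted p = 0.00174 by edgeR's quasi-likelihood test). Sox2 was at 522 and 474 against 428 and 455 (-0.17, adjusted p = 0.0273), and Nanog at 1110 and 1144 against 943 and 994 (-0.22, adjusted p = 0.00297). All 3 were lower in both knockdown libraries by a smaller factor than Spred1 or Spry4. The calls of Sox2 and Nanog were lost with library totals in place of TMM (adjusted p = 0.402 and 0.0904), and that of Sox2 with the replicate number as a block (0.057). Without siNT replicate 1, siNT replicate 2 or siCnot1 replicate 1 in turn, the adjusted p was 0.132, 0.0566 and 0.0563 for Pou5f1, 0.339, 0.0811 and 0.268 for Sox2, and 0.079, 0.115 and 0.0769 for Nanog. Prdm14, a repressor of FGF signalling in ESCs, fell from 55.7 and 54.9 to 34.2 and 35.1 (-0.67, adjusted p = 2.13e-06), and Tbx3 fell by 0.33 on the log2 scale (adjusted p = 9.25e-05).

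Markers of other cell types moved with the knockdown as well, and their part in the results for the FGF-ERK feedback genes was not tested. Of 9 primitive endoderm markers tested, 6 had a log2 fold change above 0. The 3 called higher included Col4a1 (log2 fold change 0.77, adjusted p = 1.04e-07 by edgeR's quasi-likelihood test) and Dab2 (1.02, adjusted p = 0.000139), and none was called lower. Gata4 (0.79) was not called, and Gata6 (-0.11) and Sox7 (-0.10) were among those below 0. The median of the list was 0.72 and ranged from 0.091 (without siCnot1 replicate 1) to 0.79 when 1 library was left out. The sum of the primitive endoderm markers was 118 and 124 normalized CPM in siNT and 165 and 160 in siCnot1, and Foxa2 had at most 4 counts in any library. Of 9 trophectoderm markers tested, 4 were called lower and none higher, led by Krt8 (-1.05, adjusted p = 9.91e-06, edgeR) and Tfap2c (-0.48, adjusted p = 8.76e-05). Another 3 of the 9 had a log2 fold change above 0, among them Cdx2 (0.74) and Eomes (0.13), neither of which was called. The sum of the trophectoderm markers was 153 and 157 normalized CPM in siNT against 113 and 113 in siCnot1. Among 7 primed and formative markers 1 was higher, Sox3 (1.66, adjusted p = 2.85e-06), and 3 were lower, including the transcription factor gene Otx2 (-0.74, adjusted p = 0.000162); the call of Otx2 was lost in each fit without a control library (0.0535 and 0.0572). Fibroblast markers summed to 17.2 and 20.4 normalized CPM in siNT and 29.2 and 25.2 in siCnot1, with Col1a1 (1.403, adjusted p = 0.000541) and Pdgfrb (0.78, adjusted p = 0.000275) higher among 4 tested, while 3 of the 10 listed, Col3a1, Dcn and Prrx1, had 0 counts in all libraries. The calls of Col1a1 and Pdgfrb were lost in each fit without a control library (from 0.051 to 0.0678 for Col1a1, 0.0847 and 0.085 for Pdgfrb). Without siNT replicate 1 or 2 in turn, the counts called were 2 and 2 for primitive endoderm, 2 and 2 for trophectoderm, 2 and 1 for primed and formative markers, and 0 and 0 for fibroblasts. The markers that define ESCs, Pou5f1, Sox2 and Nanog, were present in every library at the levels given above.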

How the data were processed

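RNA-seq was available for 2 siNT and 2 siCnot1 libraries of mouse ESCs. The authors made stranded poly(A)+ libraries and deposited raw counts per gene, with no normalization and no pooling; the table gives gene positions and exon lengths. The notes of the submitters name fastp 0.19.4, HISAT2 2.2.1 and DESeq2 1.40.2 and the build mm10, whereas the starts of 0 of the 10 members equal those of GRCm38. The counting program and its strand setting are not given in the sources used here. Counts were filtered with filterByExpr (minimum count 10), scaled by TMM and tested with the quasi-likelihood test of edgeR 4.0.16 in R 4.3.3, with group as the only term, over 18144 genes; 95% intervals come from the same fit, whose biological coefficient of variation was 0.0721. Standard errors are the log2 fold change divided by the root of the F statistic. At the depths given, 3 counts equal 0.0896 to 0.0964 CPM, which covers counting error only. Labels number the replicates 1 and 2 without saying what they share. The p-values set the difference between groups against the spread between these libraries, which edgeR estimates for each gene with information from all genes. Alternatives were other scalings (DESeq2 size factors, upper quartile, library totals), no filter or a filter at 1 CPM in at least 2 libraries, the tests of DESeq2 1.42.0 and limma-voom (limma 3.58.1), a replicate block and leaving out each library. Fits were tested on simulated data. Members, lists and tests were chosen with earlier results of these data known. Named were all members, Cnot1, their paralogues, Fgfr1, Fgfr2, Il17rd, Sox2, Pou5f1 and Nanog, and from each other list at most 2 higher and 2 lower genes (2 in all for cell type markers) with the smallest adjusted p among those called. Foxa2, Gata4, Gata6, Sox7, Cdx2, Eomes, Col3a1, Dcn, Prrx1, Gpc4 and Tfcp2l1 were named after their values were seen. Motifs were searched in GENCODE M21 and RefSeq sequences joined by symbol.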

Additional observations from a re-analysis of the deposited data

How the results depend on the processing

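With library totals in place of TMM, 1563 of all tested genes were lower, and the log2 fold changes of Dusp4 and Etv5 turned to 0.083 and 0.019. Testing every gene with a count gave 1303 higher and 1450 lower genes. Under a filter at 1 CPM in 2 libraries, the rule of the study took in 729 genes as higher and 186 as lower. A replicate block gave 2524 higher and 2431 lower genes, the members stayed at 1 higher and 5 lower, and Spred1 had a log2 fold change of -0.92; no member's call changed, the calls of Gpc4, Rps6ka2, Sox2 and Tfcp2l1 were lost, and the deviations of libraries that share a number were correlated at 0.011 over 18144 genes, so the numbers were not taken to pair the samples.

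Leaving out 1 library leaves a lone library assumed to vary like the other group. These fits, on the same 18144 genes, gave 625 to 1989 higher and 705 to 1960 lower genes, and 1 higher and 3 to 5 lower members: Spry2 was lost without siNT replicate 1 (log2 fold change -0.42, adjusted p = 0.0532), and Dusp6 (-0.42, adjusted p = 0.0672) and Etv4 (-0.42, adjusted p = 0.0549) without siNT replicate 2. Filtering again on the 3 libraries left, which was added after seeing the data, gave 4 to 5 lower members. The log2 fold change ranged over these fits from -0.149 to 0.0898 for Dusp4, from -0.0439 to 0.105 for Spred2, from -0.589 to -0.418 for Dusp6, from -0.576 to -0.42 for Spry2 and from -0.545 to -0.374 for Etv4. Fgf4, Spry4 and Spred1 kept direction and call in all 12 alternatives, at 0.29 to 0.44, -0.95 to -0.78 and -0.995 to -0.82, with adjusted p of at most 0.0476, 0.0306 and 0.0306.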
